A study of Homo sapiens with 12 samples.

Results

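The complement components and regulators described here are 9 genes: C1R, C1S, C3, CFB, CFI, SERPING1, CD46, CD55 and CD59. They were taken by symbol from the 60617 gene IDs of the count files, as complement genes implicated in endometriosis. The list was chosen with the fold changes between the groups of these same libraries in view, so that these counts are the measured values the members were selected on. Of the 9, 8 reached an average of 1 count per library, the filter that left 23041 genes to test, and CFB had no count in any library. Their fold changes and adjusted p-values below describe where they stood in the fit of all genes and are not independent evidence.

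The measurements were mRNA-seq libraries of 12Z, an immortalized human epithelial line derived from endometriosis, in 4 groups of 3. Control cells carried pCAG empty vector with vehicle, Insulin cells the empty vector with 100 nM insulin, Viperin cells pCAG Viperin with vehicle, and Viperin + Insulin cells pCAG Viperin with 100 nM insulin. All 4 groups were transfected and kept without serum for 4 h before vehicle or insulin, and RNA was taken 24 h afterwards. The samples are 1 cell line under transient transfection, in which not every cell need carry the plasmid. RSAD2, the gene of Viperin, was at 2.28 to 5.19 CPM (counts scaled to a common library size by TMM) in the 6 empty vector libraries and at 384 to 665 CPM in the 6 pCAG Viperin libraries, with no overlap.

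Libraries held 25979022 to 46889002 read pairs assigned to genes. Reads mapping to more than 1 place made up 13.9% of the reads in Control library 1 and 12.1% in Viperin library 3, the highest of the 12, and counts without those libraries are given in the closing section. Mitochondrially encoded genes took 5.59% to 6.64% of the counts in Control, 5.14% to 5.19% in Insulin, 4.82% to 5.34% in Viperin and 4.28% to 4.52% in Viperin + Insulin. KRT8, KRT18 and KRT19, keratins of simple epithelia, had at least 11923 counts in every library, whereas the epithelial adhesion genes EPCAM and CDH1 had only 2 to 39 and 24 to 66 counts. Hepatocytes are the main complement-producing cells, and of their 6 markers FGB and APOB were at 0 in all libraries, while the list summed to 0.121 to 0.850 CPM. In the leukocyte list AIF1 was at 0 and the 6 markers summed to 5.29 to 7.50 CPM. Most of each sum was CD14, with 127 to 258 counts in a library. CD68 shares 94.9% of its canonical transcript with exons of another gene, so its 0 to 6 counts do not tell whether it was expressed.

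Complement is a cascade of plasma and cell-surface proteins. In the classical pathway, C1r activates C1s within the C1 complex, and C1s cleaves C4 and C2 to form an enzyme that splits C3. The alternative pathway amplifies C3 cleavage with factor B, the product of CFB. C1 inhibitor, encoded by SERPING1, inactivates C1r and C1s. Factor I, the product of CFI, degrades C3b with cofactors such as CD46, CD55 dissociates the C3-cleaving enzymes, and CD59 blocks the membrane attack complex. Liver makes most circulating complement, and epithelial and stromal cells also make several components. Complement genes, C3 among them, are expressed in endometriotic lesions.

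The genes lie at several places in GRCh38. C1R (chr12:7080214-7092540, minus strand) and C1S (chr12:6988259-7071032, plus strand) are neighbours on chromosome 12. CD46 (chr1:207752037-207795513, plus strand) and CD55 (chr1:207321519-207386804, plus strand) both lie in the cluster of complement regulators on chromosome 1. SERPING1 (chr11:57597387-57619171, plus strand) and CD59 (chr11:33703010-33736479, minus strand) lie apart on chromosome 11. C3 is at chr19:6677704-6730562 on the minus strand, CFI at chr4:109731008-109802150 on the minus strand and CFB at chr6:31945650-31952086 on the plus strand. Each position is that of the whole protein-coding gene.

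Promoter windows (250 bases before to 50 after a start site, from RefSeq, build GRCh38.p14) were at hand for 6 of the 9 genes, as 11 windows. C1S, C3 and SERPING1 had no window and were not searched. They were searched on both strands for 5 short motifs of factors that act on complement genes or answer to insulin, chosen with these windows already seen. The motifs were STAT (TTCNNNGAA, held by 7.66% of 35116 promoter windows), IRF (GAAA, any 2 bases, GAAA, 3.57%), C/EBP (TTGCNNAA, 10.5%), NF-kB (GGG, any 2 bases, TTTCC, 1.91%) and FOXO (GTAAACA, 3.42%). At least 1 match was present in 6 of the 11 windows, which belonged to C1R, CFB and CD59. The matches were of STAT, C/EBP and IRF, and none of the windows held an NF-kB or FOXO match. Of all promoter windows, 23.7% held a match of any of the 5. A pair of overlapping CD59 windows hold the same STAT match, so the matches lie at 8 distinct places, among them a pair of C/EBP matches at a CD59 start site within the gene, which is not shown. The stretches of C1R and CD59 are shown because both genes had a lower CPM in Insulin vs. Control (for C1R a call that some alternatives lose), with the letters of each match in capitals and the sequence of the gene's own strand written 5′ to 3′. No matches overlapped in these stretches. The start sites of the C1R windows lie 95 and 647 bases inside the annotated gene. The C1R stretches at chr12:7092042-7092071 and chr12:7091960-7091989 belong to the latter site and lie within the gene.
C1R, C/EBP match at chr12:7092533-7092562, minus strand: agatcttttgtTTATGCAAatagttcattc
C1R, C/EBP match at chr12:7092042-7092071, minus strand: cccagacgctcTTGCTGAAcctgtgggagc
C1R, STAT match at chr12:7091960-7091989, minus strand: gccagtcctaTTCCTGGAAggggaggggag
CD59, the 250 bases before the start site at chr11:33736480-33736729, minus strand: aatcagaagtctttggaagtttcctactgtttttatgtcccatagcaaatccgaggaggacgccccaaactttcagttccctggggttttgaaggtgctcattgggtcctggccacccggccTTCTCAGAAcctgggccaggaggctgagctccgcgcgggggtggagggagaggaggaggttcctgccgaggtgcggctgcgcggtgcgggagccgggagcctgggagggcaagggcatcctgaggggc
The CD59 stretch holds 1 STAT match, which begins 128 bases before the start site. A match states only that these letters are present.

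The membrane regulators CD59 and CD46 had the highest levels. Per kb of annotated exon, and averaged over the 12 libraries, CD59 stood at 33.4 CPM ± 2.69 (SD, n = 12) and CD46 at 9.72 CPM ± 0.772. They were followed by C1S at 4.86 ± 0.590, CD55 at 4.67 ± 0.251, SERPING1 at 3.65 ± 0.727, C1R at 2.50 ± 0.422 and C3 at 1.56 ± 0.215 CPM per kb. CFI was far lower, at 0.106 ± 0.0380 CPM per kb. The order of C1S, CD55 and SERPING1 depends on the length used. With the longest transcript of each gene in place of all exons, CD55 was at 12.7, SERPING1 at 9.25 and C1S at 6.93 CPM per kb.

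**Figure D1:**
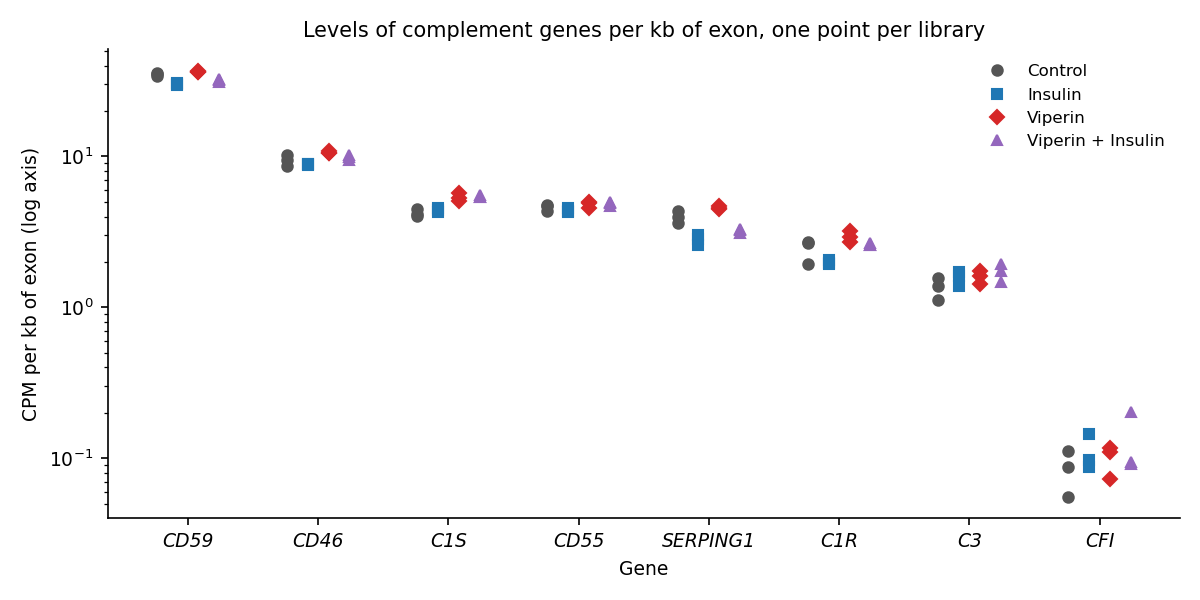
Level of 8 complement genes in CPM per kb of exon (log axis), with 1 point per library and a marker for each of the 4 groups of 3 libraries. CD59 lies highest, at 29.6 to 37.1 CPM per kb, and CFI lowest, at 0.0558 to 0.204; CFB, at 0 in all libraries, cannot be drawn on a log axis.

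The levels of CFB and CFI are limited by the counting. STAR assigns a read pair to no gene where it fits the exons of more than 1, and 90.8% of the bases of CFB's canonical transcript (2249 of 2476) lie within exons of ENSG00000244255, a read-through gene of the same strand. For CFI the share is 79.0% (1562 of 1978 bases), with ENSG00000285330. CFB and both read-through genes had 0 counts in every library. For CFB, 3 counts in a library would equal 0.0637 to 0.116 CPM, a limit for the countable remainder of the gene and for counting error only, so these counts do not tell whether CFB transcripts were present. Of the others, C1R shares 25.2% of its canonical transcript with its paralog C1RL and CD59 shares 8.26%, while C1S, C3, SERPING1, CD46 and CD55 share none.

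The first comparison asked what pCAG Viperin did to these genes without insulin. Of the 8 genes tested, 2 rose in Viperin vs. Control (adjusted p under 0.05, edgeR's quasi-likelihood test with Benjamini-Hochberg adjustment over all genes tested), C1S and CD46, and none fell, where 1.25% of all genes tested were higher and 1.04% lower. All 8 fold changes were above 0, with a median of 0.22 on the log2 scale beside 0.00066 over all genes. In Viperin + Insulin vs. Insulin, 3 rose, C1S, C1R and CD46, and none fell, where 2.09% of all genes were higher and 0.994% lower, and all 8 fold changes were again above 0, with a median of 0.18. In bulk RNA, fewer cells with a transcript and less of it per cell cannot be told apart.

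The inhibitor SERPING1 and CD59 had lower CPM with insulin. In Insulin vs. Control 3 of the 8 genes fell, SERPING1, CD59 and C1R, and none rose, where 2.96% of all genes tested were lower and 2.53% higher. On pCAG Viperin (Viperin + Insulin vs. Viperin) 2 fell, SERPING1 and CD59, and none rose, where 2.39% of all genes were lower and 2.17% higher. The medians over the 8 genes were -0.07 and -0.05 on the log2 scale, beside -0.0060 and 0.0037 over all genes.

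**Figure D2:**
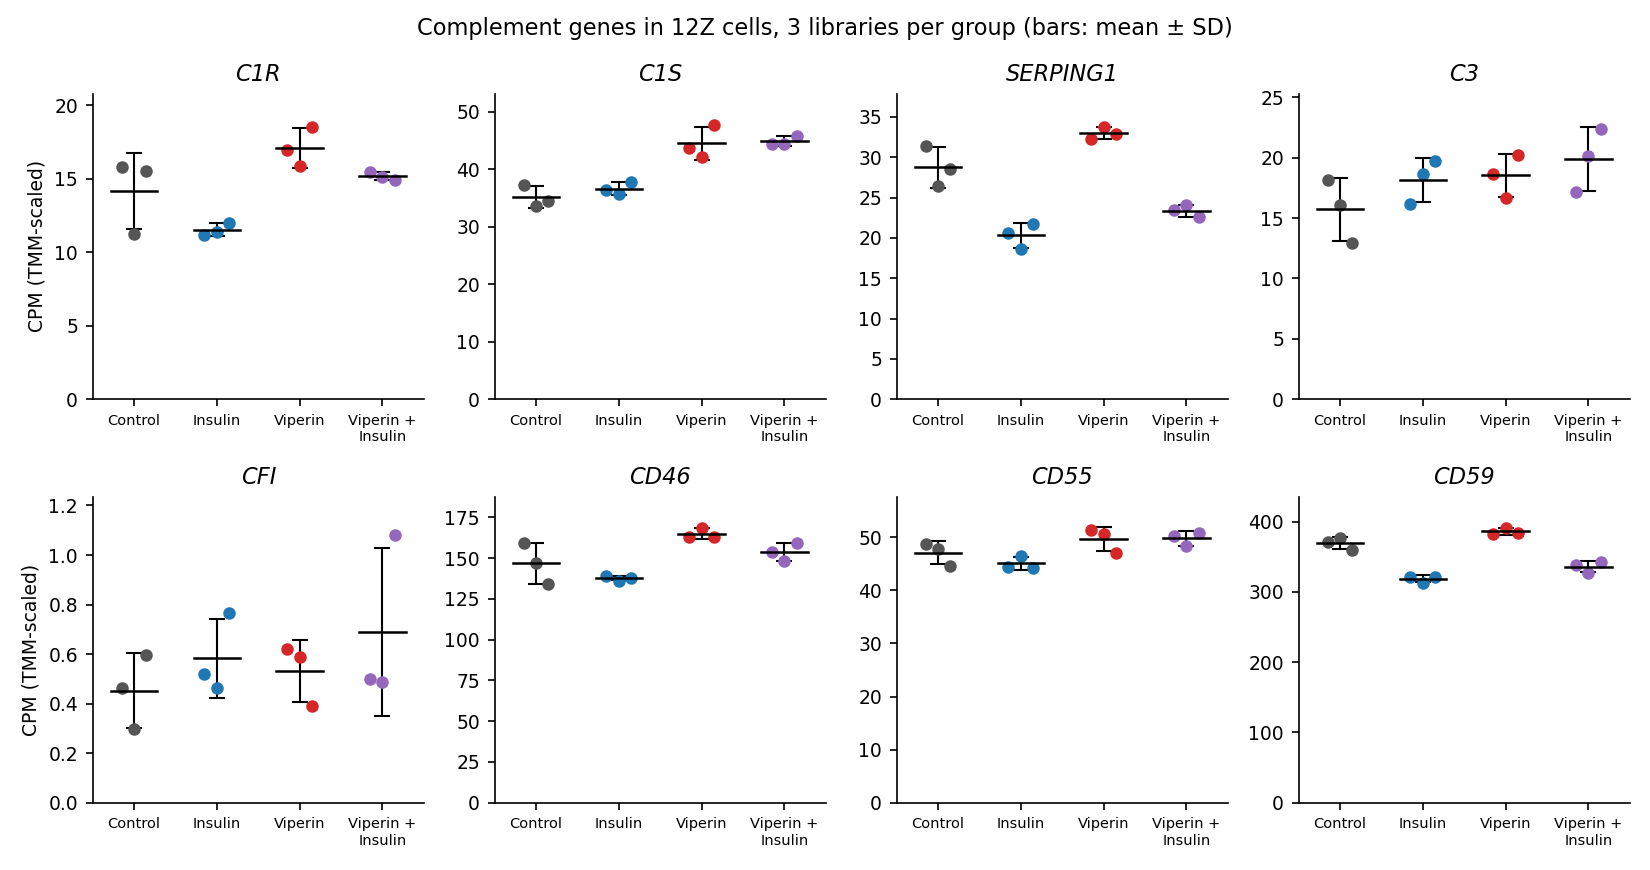
CPM of 8 complement genes in each library (points) of the 4 groups, with the mean and SD of 3 libraries as bars; each panel has its own axis, starting at 0. C1S is higher in the 6 pCAG Viperin libraries, at 42.1 to 47.6 CPM, than in the 6 empty vector libraries, at 33.6 to 37.8, and SERPING1 is lower in the 6 libraries with insulin, at 18.65 to 24.1 CPM, than in the 6 without, at 26.4 to 33.7.

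C1S, the protease that cleaves C4 and C2, followed the plasmid. It was at 37.3, 33.6 and 34.5 CPM in Control and at 43.8, 42.1 and 47.6 CPM in Viperin. With insulin it was at 36.5, 35.6 and 37.8 CPM on empty vector and at 44.45, 44.4 and 45.85 CPM on pCAG Viperin. Every pCAG Viperin library was above every empty vector library. C1S rose by 26.6% in Viperin vs. Control (95% interval 17.6% to 36.2%), a log2 fold change of 0.34 ± 0.05 (SE) with an adjusted p of 2.57e-05 in edgeR's test. By p-value it was number 13 of the 23041 genes. With insulin in both groups it rose by 22.6% (14.2% to 31.6%), a log2 fold change of 0.29 ± 0.05 with an adjusted p of 0.000104. With insulin its libraries overlapped those with vehicle, with log2 fold changes of 0.06 ± 0.05 on empty vector (interval -0.04 to 0.17) and 0.02 ± 0.05 on pCAG Viperin (interval -0.08 to 0.12). Both calls held in all 23 alternative settings.

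C1R, the protease that activates C1s, was less even. Its values were 15.8, 11.2 and 15.6 CPM in Control and 11.2, 11.4 and 12.0 CPM in Insulin. They were 17.0, 15.85 and 18.5 CPM in Viperin and 15.4, 15.1 and 14.9 CPM in Viperin + Insulin. Control library 2 lay with the Insulin libraries, and the pCAG Viperin libraries lay above their empty vector counterparts in both arms. C1R rose by 31.5% in Viperin + Insulin vs. Insulin (16.8% to 48.0%), a log2 fold change of 0.39 ± 0.09 with an adjusted p of 0.00288, and that call held in all 23 alternatives. Without insulin the log2 fold change was 0.27 ± 0.09 with an adjusted p of 0.081. It turned on the Control libraries, with log2 fold changes of 0.34 without Control library 1 (adjusted p 0.00899), 0.12 without Control library 2 (0.595) and 0.35 without Control library 3 (0.0286).

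C1R fell in Insulin vs. Control, by 0.30 on the log2 scale (SE 0.09, adjusted p 0.0329), although the libraries overlap. That call was lost in 8 of 23 alternatives, with adjusted p-values of 0.17 without Control library 1, 0.224 without Control library 3, 0.108 without Insulin library 1, 0.127 without Insulin library 2 and 0.064 without Insulin library 3. On pCAG Viperin the log2 fold change was -0.17 ± 0.08 with an adjusted p of 0.293. The difference of the insulin responses was 0.13 (interval -0.12 to 0.37), so that a difference between the backgrounds was not detectable. Read pairs from the part of C1R shared with C1RL are not counted.

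The collagen genes COL1A2 and COL3A1 passed the test in both plasmid comparisons. COL1A1 passed it in neither, although its mean was higher with pCAG Viperin in both. Of the 6 mesenchymal markers (VIM, CDH2, FN1, COL1A1, COL1A2 and COL3A1), COL1A2 and COL3A1 were higher in Viperin vs. Control, with log2 fold changes of 0.37 and 0.27. The other 4 were not called, where 1.25% of all genes tested were higher. COL1A1 averaged 1257.4 CPM in Control and 1488.1 in Viperin, FN1 1625.6 and 1897.9, CDH2 160.1 and 168.8, and VIM 1622.6 and 1512.5. With insulin in both groups COL1A2 and COL3A1 were higher by 0.40 and 0.21, and VIM was lower (-0.15). The remaining 3 were not called, where 2.09% of all genes were higher and 0.994% lower. COL1A1 averaged 1343.2 CPM in Insulin and 1564.1 in Viperin + Insulin, FN1 1522.7 and 1882.1, and CDH2 162.7 and 175.0. The 6 markers summed to 6184 to 7069 CPM in Control, 6460 to 6552 in Insulin, 7068 to 7583 in Viperin and 7134 to 7505 in Viperin + Insulin, and no marker of the list was at 0. The part of these changes in the C1S and C1R results was not tested.

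SERPING1 encodes C1 inhibitor, a serpin that also inactivates plasma kallikrein. It was at 31.45, 26.4 and 28.5 CPM in Control and at 20.7, 18.65 and 21.7 CPM in Insulin. On pCAG Viperin it was at 32.3, 33.7 and 33.0 CPM with vehicle and at 23.5, 24.1 and 22.6 CPM with insulin. All 6 insulin libraries were below all 6 vehicle libraries. SERPING1 fell by 29.2% in Insulin vs. Control (interval of the change -35.2% to -22.7%), a log2 fold change of -0.50 ± 0.06 with an adjusted p of 3.04e-08. On pCAG Viperin it also fell by 29.2% (-34.88% to -23.0%), a log2 fold change of -0.50 ± 0.06 with an adjusted p of 9.17e-09. It stood at number 26 and number 18 of the 23041 genes by p-value, and both calls held in all 23 alternatives. The difference of the insulin responses was 0.00 on the log2 scale, with an interval of -0.17 to 0.17.

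The summed level of 6 epithelial markers was higher with insulin on either plasmid. They summed to 2567 to 2635 CPM in Control and 2666 to 2840 in Insulin, and to 2431 to 2520 in Viperin and 2562 to 2674 in Viperin + Insulin, with none at 0. Most of each sum was KRT8, KRT18 and KRT19. KRT19 was not higher with insulin, at a mean of 480.5 CPM in Control and 461.4 in Insulin. On pCAG Viperin KRT19 was at 458.0 CPM with vehicle and 457.0 with insulin. Of the 6 markers only KRT8 rose on pCAG Viperin, by 0.13 ± 0.03 on the log2 scale (adjusted p 0.0126), where 2.17% of all genes were higher. None passed the test on empty vector, where 2.53% of all genes were higher. The part of these changes in the SERPING1, CD59 and C1R results was not tested.

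For the plasmid, SERPING1 had log2 fold changes of 0.20 ± 0.06 in Viperin vs. Control (adjusted p 0.0647) and 0.20 ± 0.06 in Viperin + Insulin vs. Insulin (adjusted p 0.0654), with every pCAG Viperin library above its empty vector counterparts. Neither passed the threshold. Without Control library 1 the first passed it (0.00562), and without Control library 2 its log2 fold change was 0.14 (0.364). The first also passed when low counts were left unfiltered (0.0463). The second passed in the fit of only its own groups (0.0203). It also passed without Control library 1 (0.0363) or Control library 3 (0.0392), libraries outside this comparison. Its log2 fold change stayed at 0.20 in both of these fits. Without both Control library 1 and Viperin library 3 the first (0.0120) and the second (0.0369) passed.

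The ratio of the CPM of C1S to that of its inhibitor SERPING1, chosen after the values were seen and given as a description, was 1.19, 1.27 and 1.21 in Control and 1.77, 1.91 and 1.74 in Insulin. It was 1.36, 1.25 and 1.45 in Viperin and 1.89, 1.84 and 2.03 in Viperin + Insulin. The 6 insulin libraries had higher ratios than the 6 vehicle libraries, whereas Control and Viperin overlapped. A ratio of CPM is not a ratio of molecules, since the genes differ in length.

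**Figure D3:**
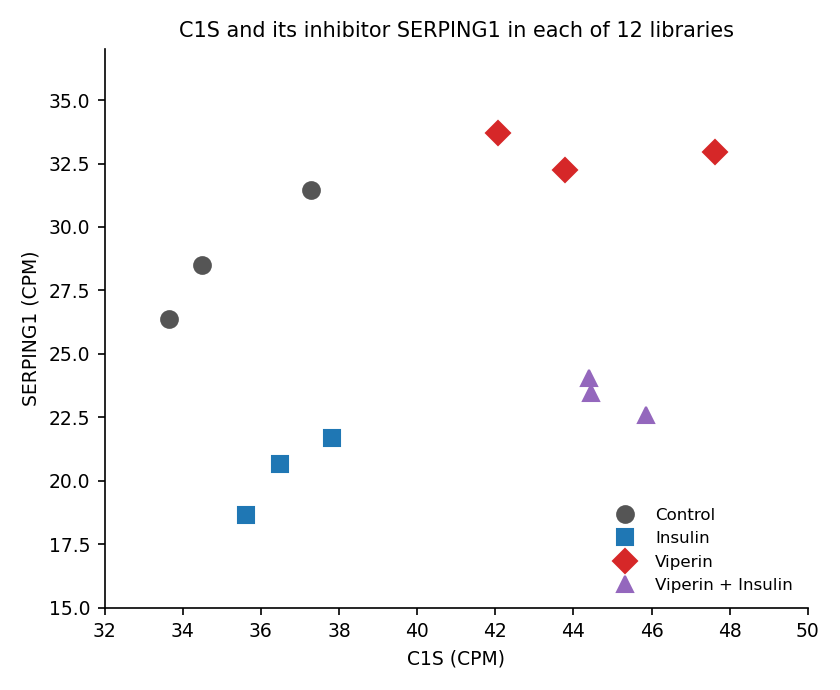
C1S (x axis) against SERPING1 (y axis), both in CPM, with 1 point for each of the 12 libraries and a marker for each group; neither axis starts at 0. The pCAG Viperin libraries lie to the right of the empty vector libraries, above 42 CPM of C1S, and the libraries with insulin lie lower, under 25 CPM of SERPING1.

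C3, the protein that the pathways cleave downstream of their recognition steps, passed the test in none of the comparisons. It was at 18.1, 16.1 and 12.9 CPM in Control, 16.15, 18.6 and 19.7 CPM in Insulin, 18.7, 16.7 and 20.2 CPM in Viperin and 17.1, 20.1 and 22.4 CPM in Viperin + Insulin. The groups overlapped in every comparison. The log2 fold changes were 0.24 ± 0.14 in Viperin vs. Control (adjusted p 0.521, 0.0479 with no filter on low counts), 0.22 ± 0.14 in Insulin vs. Control (0.505), 0.11 ± 0.13 in Viperin + Insulin vs. Viperin (0.801) and 0.14 ± 0.13 in Viperin + Insulin vs. Insulin (0.759). With 1 library left out the first ran from 0.11 (without Control library 3) to 0.35 (without Control library 1), and its interval, -0.07 to 0.56, still allows a rise of up to 47.2%.

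CFI, the protease that degrades C3b, had 9 to 51 counts in a library. Its CPM were 0.464, 0.297 and 0.598 in Control and 0.520, 0.463 and 0.766 in Insulin. They were 0.621, 0.589 and 0.389 in Viperin and 0.499, 0.486 and 1.08 in Viperin + Insulin. No comparison passed the threshold, and the log2 interval of Viperin vs. Control ran from -0.49 to 0.99, so that a change within these bounds was not detectable at this depth.

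CD46, a cofactor for factor I on the cell surface, was at 159, 147 and 134 CPM in Control and at 163, 169 and 163 CPM in Viperin. With insulin it was at 139, 136 and 138 CPM on empty vector and at 154, 148 and 159 CPM on pCAG Viperin. The pCAG Viperin libraries lay above the empty vector libraries in both arms. CD46 rose by 12.5% in Viperin vs. Control (6.20% to 19.1%), a log2 fold change of 0.17 ± 0.04 with an adjusted p of 0.013. It rose by 11.6% in Viperin + Insulin vs. Insulin (5.41% to 18.1%), a log2 fold change of 0.16 ± 0.04 with an adjusted p of 0.0161.

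Both CD46 calls depended on single libraries. The first was lost without Control library 3 (adjusted p 0.188) or Viperin library 2 (0.0908), and also with only the groups compared (0.0614). The second was lost without Insulin library 2 (0.11), Insulin library 3 (0.0881), Viperin + Insulin library 1 (0.0978) or Viperin + Insulin library 3 (0.159). For insulin, CD46 had log2 fold changes of -0.09 ± 0.04 (adjusted p 0.236) and -0.10 ± 0.04 (0.175), of which the first passed the threshold without Control library 3 (0.0104) and the second with only the groups compared (0.0499).

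CD55, which dissociates the C3-cleaving enzymes, passed the test in none of the 4 comparisons. It was at 48.8, 47.8 and 44.6 CPM in Control, 44.4, 46.5 and 44.2 CPM in Insulin, 51.3, 50.6 and 47.0 CPM in Viperin and 50.2, 48.3 and 50.8 CPM in Viperin + Insulin. Only in Viperin + Insulin vs. Insulin did the libraries not overlap, with a log2 fold change of 0.14 ± 0.05 and an adjusted p of 0.0851. There CD55 passed the threshold with only the groups compared (0.0216) and without Control library 3 (0.0435), a library outside this comparison. CD55 was at 0.14 in both of these fits. Its other log2 fold changes were 0.08 ± 0.05 in Viperin vs. Control, -0.06 ± 0.05 in Insulin vs. Control and 0.00 ± 0.05 in Viperin + Insulin vs. Viperin, none of them past the threshold.

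CD59, the inhibitor of the membrane attack complex and the most abundant of the 9 per kb, was at 371, 377 and 360 CPM in Control and at 322, 313 and 321 CPM in Insulin. On pCAG Viperin it was at 382, 392 and 384 CPM with vehicle and at 339, 328 and 342 CPM with insulin. All 6 insulin libraries were below all 6 vehicle libraries. CD59 fell by 13.7% in Insulin vs. Control (-17.8% to -9.47%), a log2 fold change of -0.21 ± 0.03 with an adjusted p of 1.31e-05. On pCAG Viperin it fell by 12.9% (-17.0% to -8.65%), a log2 fold change of -0.20 ± 0.03 with an adjusted p of 3.79e-05. Both calls held in all 23 alternatives, and the difference of the 2 responses was 0.01 (interval -0.08 to 0.11). Its log2 fold changes for the plasmid, 0.06 ± 0.03 and 0.08 ± 0.03, did not pass the threshold (adjusted p 0.425 and 0.266).

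**Figure D4:**
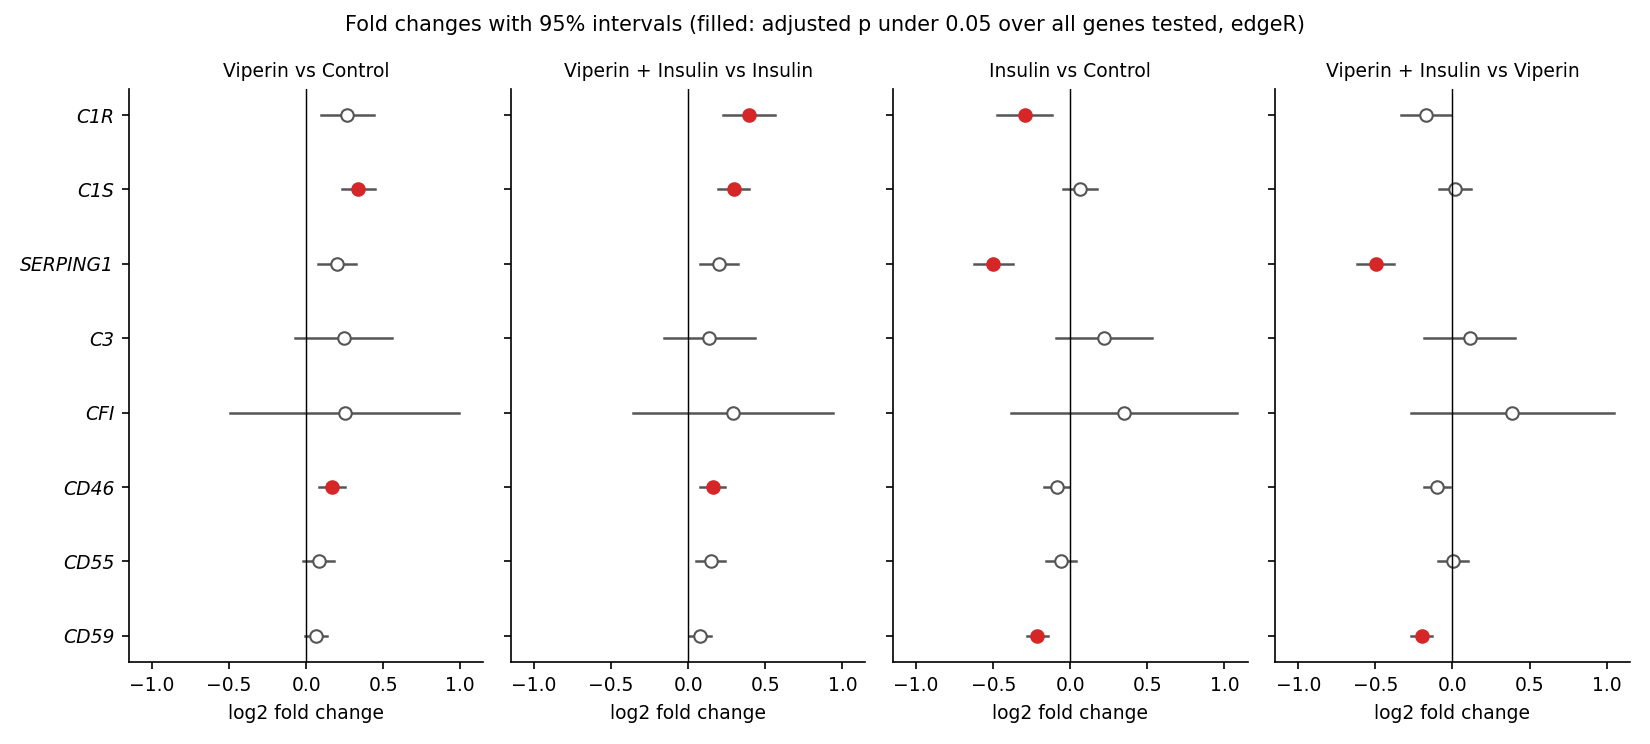
Log2 fold changes (points) with 95% intervals (lines) of 8 complement genes in 4 comparisons; filled points have an adjusted p under 0.05 in edgeR's test over all genes. C1S lies at 0.34 and 0.29 in the plasmid comparisons, SERPING1 at -0.50 and -0.50 in the insulin comparisons, and the intervals of CFI are the widest.

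Across the 4 groups the insulin responses of the 8 genes with and without pCAG Viperin were not distinguishable. None passed the threshold for the difference of the insulin responses, in edgeR or in any alternative, and 0% of all genes tested passed it in edgeR. At an unadjusted p under 0.05 there were 1296 genes among 23041 in edgeR, 865 in DESeq2 and 1344 in limma-voom, and both other tools also called 0 at the adjusted threshold. With no difference at all, a share of about 0.05 of the genes would have such p-values, so these are not counts of genes that differed. Some other edgeR fits called a few genes of the whole table, such as 21 higher and 16 lower with no filter on low counts and 12 higher and 22 lower without both Control library 1 and Viperin library 3. The insulin comparisons share no libraries with each other, whereas each shares a group with both plasmid comparisons.

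Among the members, log2 CPM of SERPING1 and CD59 had the highest Pearson correlation over the 12 libraries, 0.94, which was 0.01 once the group means were taken off. C1R and C1S had a correlation of 0.71, and 0.68 after the group means were taken off. CD46 and CD55 had 0.83 and 0.66. The libraries share treatments and differ in depth, so these values are descriptions with no test.

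The genes whose log2 CPM was most like that of C1S over the 12 libraries, of 11347 searched, were FBLN2 (r = 0.974), ADAMTS2 (0.964), TGOLN2 (0.961), CTNNB1 (0.957) and PDIA4 (0.946). FBLN2 encodes an extracellular matrix protein and ADAMTS2 the protease that trims procollagen. After the group means were taken off, the values were 0.829, 0.739, 0.743, 0.628 and 0.756. For C3 the genes were DCAF12 (0.921), SGK1 (0.920), UBE2C (0.918), SPRY2 (0.915) and TPBG (0.894), with 0.901, 0.915, 0.877, 0.865 and 0.895 after the group means were taken off. SGK1 is a kinase of the insulin and glucocorticoid pathways. The 12 libraries are few for a search of this size, and high values are to be had by searching alone.

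Counts of the rest of the complement system were mostly low. Of 53 other complement genes (recognition and pathway proteins, terminal components, regulators and receptors), 27 were tested and 16 had no count in any library, among them C1QA, C1QB and C1QC, which encode the recognition subunit of C1. C2 and CFP, with at most 2 and 10 counts, share 69.9% and 87.4% of their canonical transcripts with exons of other genes, so that their low counts do not tell whether they were expressed. The highest per kb of exon were C1QBP at 86.8, CLU at 26.5, COLEC10 at 13.7, PTX3 at 9.78 CPM per kb on average, followed by VTN at 1.67 to 2.75. Of the terminal components only C5 had more than 100 counts in every library.

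Of these 27 genes, 1 to 4 passed the test in each comparison but Viperin + Insulin vs. Insulin. In Viperin vs. Control none rose and 1 fell, beside 1.25% and 1.04% of all genes tested. In Insulin vs. Control 2 rose and 2 fell (2.53% and 2.96% of all genes), and with insulin on pCAG Viperin 1 rose and 3 fell (2.17% and 2.39%). None passed in Viperin + Insulin vs. Insulin (2.09% and 0.994%), and none for the difference of the insulin responses. Their median log2 fold changes were 0.27, 0.15, -0.11 and -0.10 in that order, against medians between -0.01 and 0.00 over all genes, and many of the 27 had only a few counts.

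CLU, which encodes clusterin, a fluid-phase inhibitor of the membrane attack complex, was at 159, 169 and 181 CPM in Control and at 153, 145 and 148 CPM in Insulin. On pCAG Viperin it was at 174, 192 and 187 CPM with vehicle and at 165, 165 and 157 CPM with insulin. The insulin libraries lay below their vehicle counterparts in both arms. CLU fell by 0.20 on the log2 scale in Insulin vs. Control (SE 0.04, adjusted p 0.000741) and by 0.18 in Viperin + Insulin vs. Viperin (SE 0.04, adjusted p 0.00194), in all 23 alternatives.

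VTN encodes vitronectin, another inhibitor of the terminal pathway. It was at 4.35, 4.77 and 5.24 CPM in Viperin and at 3.26, 3.31 and 3.35 CPM in Viperin + Insulin, and it fell by 0.52 on the log2 scale (SE 0.13, adjusted p 0.00691), a call lost without Viperin library 3 (0.0556). In Insulin vs. Control its log2 fold change was -0.19 ± 0.14. C5, the terminal component that starts the membrane attack complex, fell by 0.49 in Viperin + Insulin vs. Viperin (SE 0.13, adjusted p 0.00825), from 4.82, 5.53 and 5.63 to 4.07, 3.07 and 4.05 CPM. That call was lost without Viperin library 2 (0.0561) or Viperin + Insulin library 2 (0.112). On empty vector the log2 fold change of C5 was -0.34 ± 0.14 (adjusted p 0.136), with every insulin library below Control.

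C3AR1, the receptor for the C3a fragment, rose in Insulin vs. Control, from 2.78, 3.36 and 3.05 to 3.45, 4.88 and 5.61 CPM. The log2 fold change was 0.59 ± 0.15 with an adjusted p of 0.00515, or 0.139 without Insulin library 3. On pCAG Viperin its log2 fold change with insulin was 0.20 ± 0.14 (adjusted p 0.57). COLEC10, a collectin of the lectin pathway, fell by 0.28 in Insulin vs. Control (SE 0.07, adjusted p 0.0253), from 54.4, 59.1 and 53.8 to 41.4, 49.0 and 47.4 CPM. The call was lost without Control library 1 (0.0581), 2 (0.0853) or 3 (0.0961), and also with the replicate number as a block (0.078).

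C1QBP encodes a mostly mitochondrial protein that binds the globular heads of C1q. It was at 197, 205 and 202 CPM in Control, 210.3, 234 and 225.5 CPM in Insulin, 184, 174 and 182 CPM in Viperin and 206, 202 and 211 CPM in Viperin + Insulin. It rose with insulin by 0.15 on empty vector (SE 0.04, adjusted p 0.00753) and by 0.20 on pCAG Viperin (SE 0.04, adjusted p 0.000241). It fell by 0.16 in Viperin vs. Control (SE 0.04, adjusted p 0.00847). The call on pCAG Viperin held in all 23 alternatives. That on empty vector was lost without Insulin library 2 (0.162) or 3 (0.0626). That for the plasmid was lost without Control library 2 (0.0583) or Viperin library 2 (0.0914), and with only the groups compared (0.0532). PTX3, a pentraxin that binds C1q, was named for its level only, at 12.1 to 29.9 CPM over the 12 libraries, and passed the test in none of the comparisons.

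**Figure D5:**
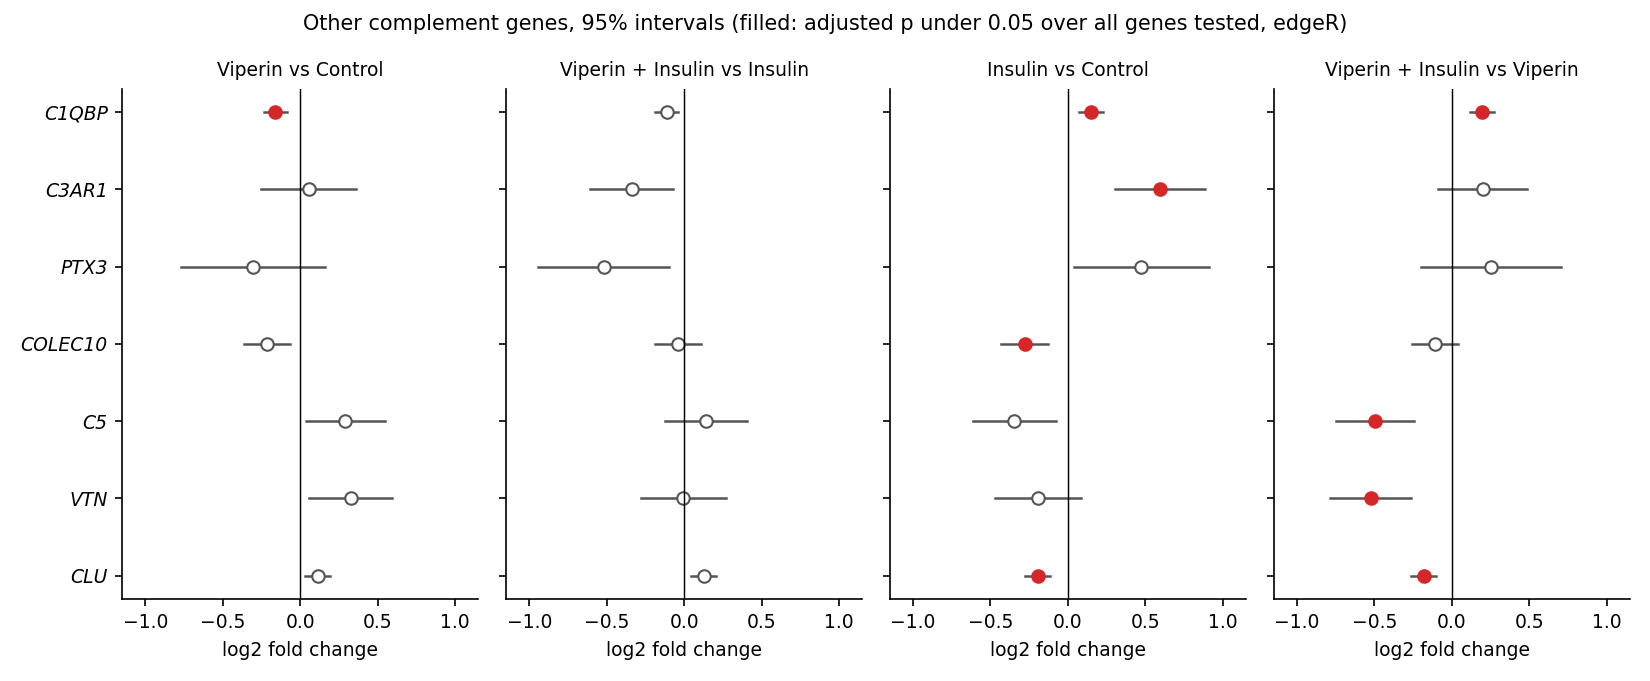
Log2 fold changes (points) with 95% intervals (lines) of 7 other complement genes in 4 comparisons, named because they passed the test in at least 1 comparison or for their level; filled points have an adjusted p under 0.05 in edgeR's test over all genes. CLU lies at -0.20 and -0.18 in the insulin comparisons and C1QBP at 0.15 and 0.20.

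Interferon gamma, IL-6 family cytokines and NF-kB are known inducers of complement genes, and 29 genes of these paths were looked at. IFNG, TNF and IRF9 had no count in any library, but 93.1% of IRF9's canonical transcript lies in exons of another gene, so its counts do not tell whether it was expressed. Of the 26 tested, 3 rose in Viperin vs. Control and none fell, beside 1.25% and 1.04% of all genes. STAT2, a transcription factor of the interferon response, rose by 0.22 ± 0.04 on the log2 scale (adjusted p 0.00197), from 65.8, 62.5 and 62.9 to 79.3, 70.9 and 71.4 CPM, a call lost without Viperin library 1 (0.0709). IFNGR1, a subunit of the interferon gamma receptor, rose by 0.21 ± 0.05 (adjusted p 0.0227), or 0.236 without Control library 3 and 0.0507 to 0.0862 without any one Viperin library. With only the groups compared the adjusted p of IFNGR1 was 0.0799.

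CEBPD, a C/EBP factor of the acute phase response, rose by 0.33 ± 0.09 in Viperin vs. Control (adjusted p 0.0366) and by 0.31 ± 0.09 in Viperin + Insulin vs. Insulin (0.0337), where 2.09% of all genes were higher and STAT3 also rose, by 0.13 ± 0.04 (0.0273). Each of these calls was lost without any one of several libraries, at adjusted p-values of up to 0.271, 0.198 and 0.152. The first CEBPD call was also lost with only the groups compared (0.118). In Insulin vs. Control IFNGR1 alone rose, by 0.18 ± 0.05 (adjusted p 0.0351, up to 0.287 without 1 library), beside 2.53% of all genes. That call was also lost with limma-voom (0.0502) and with only the groups compared (0.0533). With insulin on pCAG Viperin, where 2.17% of all genes rose and 2.39% fell, NFKBIA, an inhibitor of NF-kB, rose by 0.24 ± 0.07 (0.037, up to 0.273 without 1 library) and JAK1 fell by 0.15 (SE 0.04, adjusted p 0.00528), or 0.0873 without Viperin + Insulin library 1 and 0.0505 without Viperin library 1. None of the 26 passed the threshold for the difference of the insulin responses.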

How the data were processed

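mRNA-seq of 12Z cells was analysed in 12 libraries. The authors removed adapters (cutadapt, Trim Galore), ran FastQC, mapped reads to hg38 and counted them per gene with STAR. No versions were found for these tools, and the methods state 3 independent experiments per condition. The deposited values are unnormalized counts, of which those on the reverse strand (94.1% to 94.3% of assigned pairs) were used. GENCODE release 44 named 60357 of the 60617 IDs.

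The 23041 genes with an average of at least 1 count per library were TMM-scaled, and 4 group means were fitted with the robust quasi-likelihood method of edgeR 4.0.16 in R 4.3.3 (prior count 0.125). Adjustment followed Benjamini and Hochberg over all genes tested, and genes were called at 0.05. The study itself used DESeq2 with IHW at 0.001, and IHW was not used here. The SE was taken from the fold change and its F statistic, and intervals are at 95%. CPM are counts divided by the TMM-scaled library size, and per kb levels used the union of annotated exons. Likeness used log2 CPM (prior count 2) of genes with a mean of at least 100 counts.

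Named are all 9 members, the genes of the other complement and inducer lists that passed the test in any comparison, the 5 other complement genes with the highest level per kb, and the 5 genes most like C3 and C1S. The members and all lists were chosen with earlier results of these data known. At 25979022 to 46889002 assigned pairs per library, limits for counts of 0 cover counting error only. A label protocol names pBabe as the empty vector, where the treatment labels have pCAG.

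Alternative settings were no filter, RLE size factors, counts without RSAD2 and mitochondrial genes, filterByExpr, DESeq2 1.42.0, limma-voom (limma 3.58.1), unstranded counts, a replicate block, the groups compared alone and each library left out. Added after seeing the data were edgeR without its robust option and a fit lacking both Control library 1 and Viperin library 3.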

Additional observations from a re-analysis of the deposited data

Results flagged for a closer look

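Counts on the strand opposite to each member were looked at as data outside the comparisons. For CD46 the lowest Viperin + Insulin library, at 0.182 CPM, was above the highest Control library, at 0.165 CPM, with 0 to 9 such counts over the 12 libraries. MIR29B2CHG, a lncRNA gene, lies on that strand and overlaps 5.14% of the exon bases of CD46. Groups of 3 libraries are too small for a test of single outlying libraries.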

How the results depend on the processing

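Of the members' fold changes, 838 values under the alternatives kept their direction and their side of the threshold, 16 newly passed it, 15 no longer did and 43 changed sign. The counts of genes called in this and the next paragraph stand without the share of all genes called in the same setting. A setting that calls more genes throughout can raise them, so they describe the settings and not the listed genes. Members called in Viperin vs. Control were 2, but 5 with no filter on low counts and 1 with only the groups compared, and 1 to 4 with 1 library left out; in Viperin + Insulin vs. Insulin they were 3, but 5 with only the groups compared, and 2 to 5 with 1 library left out. Of the other complement genes, 1 was called in Viperin vs. Control, but 2 with no filter, with DESeq2, without the robust option and without both Control library 1 and Viperin library 3, and 0 with only the groups compared (0 to 2 with 1 library left out). In Insulin vs. Control 4 were called, and 2 to 5 with 1 library left out. For the plasmid under insulin none was called, but 1 with no filter, DESeq2, limma-voom or without the robust option, and 2 with only the groups compared or without both libraries (0 to 4 with 1 library left out).

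Of the inducer list, 3 were called in Viperin vs. Control, but 1 with only the groups compared and 6 without both libraries (0 to 6 with 1 library left out). In Insulin vs. Control 1 was called, but 2 with no filter and 0 with limma-voom or only the groups compared (0 to 3). With Viperin + Insulin against Viperin and against Insulin 2 were called in each, and 0 to 3 with 1 library left out. For the difference of the insulin responses none was called, but 1 without both libraries (0 to 1). The causes were not tested.

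Signs turned for values near 0 and for CFI. For the difference of the insulin responses, CFI was at -0.038 with limma-voom, -0.078 with the replicate block and -0.13 without both libraries (-0.49 to 0.28 with 1 library left out). SERPING1 was at -0.0029 with RLE size factors, -0.0075 without RSAD2 and mitochondrial genes, -0.0082 with no filter, -0.0016 with filterByExpr, -0.0020 with DESeq2, -0.0034 with limma-voom, -0.0055 with unstranded counts and -0.071 without both libraries (-0.063 to 0.059). CD55 was at -0.0048 and CD59 at -0.00041 without both libraries (CD59 -0.0056 to 0.032 with 1 left out). With 1 library left out the difference ran from -0.088 to 0.0023 for C1S, from -0.22 to 0.022 for C3 and from -0.072 to 0.051 for CD46. For insulin on pCAG Viperin, CD55 was at -0.00058 without RSAD2 and mitochondrial genes, -0.0020 with unstranded counts and -0.034 without both libraries (-0.032 to 0.024), C1S at -0.022 to 0.065 and CFI at -0.14 to 0.57. For the plasmid under insulin, CFI ran from -0.24 to 0.53.

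Same-numbered libraries of different groups had correlated deviations of -0.111 to 0.0869, none above 0.1, and libraries did not all correlate best with their own number, so the numbers were not taken to pair them. With the replicate number as a block, C1R passed the threshold in Viperin vs. Control (adjusted p 0.0486) and COLEC10 missed it in Insulin vs. Control (0.078). CFI had the fewest counts of the genes tested among the 9, with 9 in its lowest library, and 79.0% of its canonical transcript lies in exons of other genes.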
